A study of Mus musculus with 36 samples.

Results

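Thyroid hormone action in muscle was followed here through 5 genes out of the 51912 gene identifiers counted. They were Dio2, which makes the active hormone, Slc16a10, which carries it across the plasma membrane, the receptor genes Thra and Thrb, and Thrsp, a lipogenic gene named for its response to the hormone. The members were found in both count tables by matching Ensembl identifiers to these symbols, and the group was chosen because Dio2 was lower in mutant than in wild-type (WT) muscle. The genotype values of the 5 genes, and all differences of Dio2 between groups, are therefore given as descriptions without a test. Tests are given for the other 4 members between soleus and tibialis anterior (TA) within a genotype, for other genes of the pathway, and for relations across libraries taken as deviations from their group means.

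RNA-seq counts from the whole soleus and the whole TA of both genotypes formed 4 groups of 9 libraries (36 libraries). All mice were C57BL/6, male and 3 months old. ∆Ig3-MuSK mice were homozygous for a germline CRISPR-Cas9 deletion of the exons encoding the third immunoglobulin-like (Ig3) domain of MuSK, the muscle-specific kinase, so every tissue carried the deletion, and WT mice carried no deleted allele. Libraries held 43492062 to 60426556 counted reads in soleus and 49287472 to 78660422 in TA. Because the libraries came from whole muscle, fewer cells of a type and less RNA per cell cannot be told apart in any level below. In the WT groups, all 5 slow-fiber markers were higher in soleus and 4 of 5 fast-fiber markers were lower, as the muscle labels state. Musk itself was counted over the whole gene, deleted and kept exons together, and so does not check the genotype labels. Its level was 11.3 CPM in mutant and 15.2 CPM in WT soleus (adjusted p = 0.0978).

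The thyroid gland releases mainly thyroxine (T4), a prohormone with little receptor activity. Deiodinase 2, the product of Dio2, removes an outer-ring iodine inside the cell and yields triiodothyronine (T3), which enters the nucleus and binds receptors held on DNA mostly as dimers with retinoid X receptors. Deiodinase 3 inactivates both hormones. In skeletal muscle T3 is known to favor fast myosins, the fast calcium pump and oxidative metabolism, and Dio2 transcription is known to respond to cAMP.

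Dio2 lies on chromosome 12 (GRCm38 chr12:90724552-90738438, minus strand) and its annotated protein-coding transcript has 2 exons. Its protein is a selenoprotein, in which a TGA codon is read as selenocysteine rather than as a stop. GENCODE M21 marks 2 such codons among the 266 codons before the stop, at codon 130 and codon 263. The stretches around them are shown because this recoding sets Dio2 apart from the transporter and receptor genes. They are coding sequence in transcript orientation from GRCm38, chr12:90729793-90729855 and chr12:90729412-90729456, with the recoded TGA in capitals.
Dio2 codon 130: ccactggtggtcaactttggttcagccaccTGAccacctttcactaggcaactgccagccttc
Dio2 codon 263: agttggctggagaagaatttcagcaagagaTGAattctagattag

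The 250 bases before the RefSeq start site of Dio2 (GRCm38.p6, chr12:90739039-90739288, minus strand) are shown because they hold the 8 letters of a full cAMP response element, the DNA motif bound by the cAMP-responsive factor Creb1. The capitals mark that motif, TGACGTCA, whose first base lies 95 bases before the start site. The GENCODE gene model given above starts 600 bases downstream of this RefSeq site.
Dio2 promoter: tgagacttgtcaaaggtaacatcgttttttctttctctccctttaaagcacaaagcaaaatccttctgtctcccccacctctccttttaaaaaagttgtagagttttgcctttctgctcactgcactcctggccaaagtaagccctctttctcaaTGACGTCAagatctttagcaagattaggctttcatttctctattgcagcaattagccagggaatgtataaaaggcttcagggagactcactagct
The motif is its own reverse complement and was present in 1.79% of 32851 RefSeq promoter windows, each of 300 bases. Of the members, 4 had a window, with 2 windows for Thrb, and Dio2 alone of these matched it. The E-box CACGTG (7.15% of windows) and the nuclear receptor half-site AGGTCA (16.3% of windows), searched on both strands, each matched in a Thrb window and in no other member's. The D-box TTATGTAA (0.938% of windows) matched in none. A match describes letters in a window and not a bound site.

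Dio2 was the deiodinase gene of these muscles, and its level differed between muscles and between genotypes. Levels are counts scaled to library size (CPM), adjusted by trimmed mean of M values (TMM) factors over the 36 libraries. In WT soleus Dio2 ranged from 4.57 to 9.32 CPM with a median of 7.12 CPM. In ∆Ig3-MuSK soleus it ranged from 2.92 to 5.96 CPM with a median of 4.59 CPM. All 9 mutant libraries lay below the WT median and 4 of 9 lay below the lowest WT library, but the groups overlapped. In WT TA it ranged from 1.52 to 2.45 CPM with a median of 2.02 CPM, and in ∆Ig3-MuSK TA from 1.26 to 2.18 CPM with a median of 1.72 CPM. Here too the groups overlapped, with 8 of 9 mutant libraries below the WT median and 3 of 9 below the lowest WT library. The lowest soleus library of either genotype lay above the highest TA library.

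**Figure D1:**
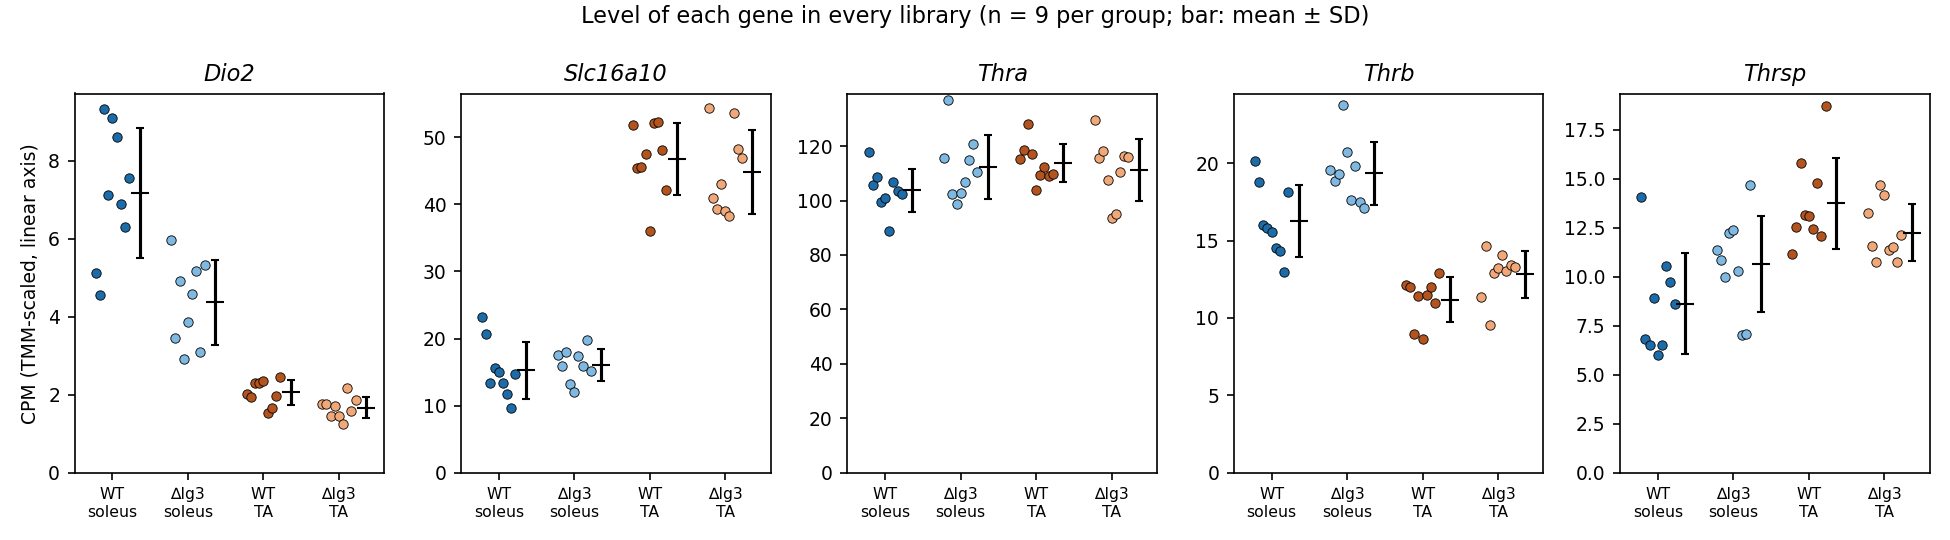
Level of each of the 5 genes in every library, in CPM on linear axes that start at 0, with 9 points per group and the mean ± SD beside them. The mean of Dio2 is ordered from WT soleus (7.17 ± 1.67) to ∆Ig3-MuSK soleus (4.37 ± 1.08), WT TA (2.06 ± 0.321) and ∆Ig3-MuSK TA (1.67 ± 0.272), while Slc16a10 is higher in every TA library than in every soleus library.

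The mean level of Dio2 was 7.17 ± 1.67 CPM in WT soleus and 4.37 ± 1.08 CPM in mutant soleus (SD, n = 9 each), a log2 difference of -0.73 (SE 0.16) or 1.65-fold. In TA the means were 2.06 ± 0.321 and 1.67 ± 0.272 CPM (SD, n = 9 each), a log2 difference of -0.30 (SE 0.11) or 1.23-fold. The soleus difference minus the TA difference was -0.41 on the log2 scale (SE 0.20). Across all genes, 0.952% of 19439 were called between genotypes in soleus and 0.0149% of 20075 in TA, where called means an adjusted p under 0.05 and a change of at least 1.2-fold. Since Dio2 was picked on this contrast, nothing is read from its place against those shares. WT soleus replicates 1 and 2 held the lowest Dio2 of their group (5.13 and 4.57 CPM) together with its highest Slc16a10 (23.3 and 20.7 CPM) and Thrb (20.2 and 18.8 CPM), and the highest summed fast-fiber markers. With both left out, a choice made after seeing these values, the log2 difference of Dio2 in soleus was -0.86 (SE 0.14). Leaving out the lowest WT values had to enlarge this difference, so nothing is read from the larger value.

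In WT mice Dio2 was 3.47-fold higher in soleus than in TA (log2 difference 1.80, SE 0.13), and all 9 soleus libraries lay above all 9 TA libraries. In this comparison 57.7% of 19437 genes were called (30% higher and 27.6% lower in soleus). In ∆Ig3-MuSK mice the mean levels of 4.37 CPM in soleus and 1.67 CPM in TA differed by 1.38 on the log2 scale (SE 0.14). Neither difference is given with a test, because the choice of Dio2 used its level in all 4 groups. Between the mutant muscles 55.9% of 19910 genes were called, 27.9% higher and 28% lower in soleus. The soleus and TA counts were deposited as separate tables of raw counts, and TA libraries were on the whole deeper, so table and muscle cannot be told apart.

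The other deiodinase genes were close to the limit of detection. Dio1, the deiodinase of liver and kidney, had 0 counts in all 9 WT TA libraries and at most 4 counts in any library. Dio3, the inactivating enzyme, had 0 to 18 counts per library in WT soleus and 8 to 22 in WT TA. Its mean level was 0.307 CPM in ∆Ig3-MuSK TA and 0.227 CPM in WT TA (log2 difference 0.45, SE 0.31, adjusted p = 0.361), and in the mutant groups it was 2.29-fold lower in soleus than in TA (log2 difference -1.19, SE 0.36, adjusted p = 0.0057). Iyd, which recovers iodide from iodotyrosines, had at most 3 counts in any library.

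**Figure D2:**
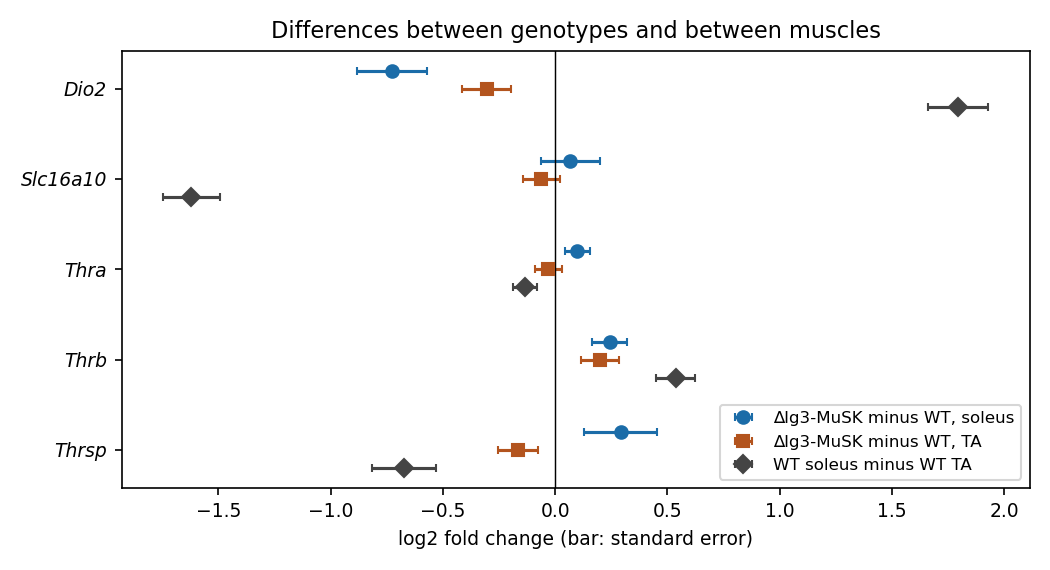
Log2 differences of the 5 genes with their standard errors, for ∆Ig3-MuSK minus WT in soleus (circles), the same in TA (squares) and WT soleus minus WT TA (diamonds). Dio2 lies at -0.73, -0.30 and 1.80, and Slc16a10 stands close to 0 for genotype and at -1.62 for muscle.

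Slc16a10 encodes the transporter MCT10, which moves aromatic amino acids and thyroid hormones. It followed the opposite pattern between muscles to Dio2. In WT soleus it ranged from 9.62 to 23.3 CPM (median 14.7) and in WT TA from 36.0 to 52.2 CPM (median 47.5). No soleus library reached the lowest TA library, and the level was 3.08-fold lower in soleus (log2 difference -1.62, SE 0.13, adjusted p = 3.47e-10). In mutant mice it ranged from 12.1 to 19.7 CPM in soleus and from 38.2 to 54.3 CPM in TA, again without overlap (log2 difference -1.48, SE 0.09, adjusted p = 4.25e-12). The genotype differences were 0.07 (SE 0.13) in soleus and -0.06 (SE 0.08) in TA on the log2 scale. Without WT soleus replicates 1 and 2 the soleus value was 0.25 (SE 0.10). These held the highest Slc16a10 of their group, so leaving them out had to raise it.

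The remaining transporters did not share one direction between muscles. Of 7 further genes on the transporter list, 5 had enough counts to be tested. Slc7a5, the light chain of the LAT1 amino acid exchanger, was 2.53-fold higher in WT soleus than in WT TA (4.29 against 1.68 CPM, adjusted p = 1.39e-08). Slc7a8, the light chain of LAT2, was 2.83-fold lower in soleus (adjusted p = 4.19e-07), and Slco2b1, an organic anion transporter, was 1.21-fold higher (adjusted p = 0.00331). That call of Slco2b1 was at the edge of the fold limit and was lost under DESeq2, with DESeq2's size factors and under the replicate block (log2 difference 0.26 in each). Slc3a2, the heavy chain shared by LAT1 and LAT2, differed by less than 1.2-fold (18.1 and 19.7 CPM). Slco1c1 was at 0.164 CPM in WT soleus and Slc17a4 at 0.00891 CPM, too low to be tested. Between genotypes none of the 5 was called by edgeR in either muscle. At an unadjusted p under 0.05 there was 1 lower in soleus (Slc7a5, log2 difference -0.24) and 2 higher in TA (Slc7a8, 0.82, and Slco2b1, 0.13), and neither DESeq2 nor limma-voom called any of them.

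Of the proteins that bind thyroid hormone outside the nucleus, Ttr, the plasma carrier transthyretin, was 1.89-fold lower in WT soleus than in WT TA (0.551 against 1.03 CPM, adjusted p = 0.0046). Crym, a cytosolic T3-binding protein, stood at 2.24 and 2.70 CPM (adjusted p = 0.0918). Serpina7, the plasma thyroxine-binding globulin, was at 0 CPM in every WT soleus library.

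Thra, the receptor gene that predominates in muscle, was the most highly expressed member and varied little. Its level per kilobase of exon was 22.5 ± 1.70 CPM in WT soleus and 24.6 ± 1.53 CPM in WT TA (SD, n = 9 each), against 2.20 ± 0.315 and 1.51 ± 0.196 CPM per kilobase for Thrb. Per library, Thra ranged from 88.8 to 118 CPM in WT soleus (median 103) and from 104 to 128 CPM in WT TA (median 112), and the groups overlapped. The log2 difference between muscles was -0.13 (SE 0.05, adjusted p = 0.0298), which is under 1.2-fold and was not called. In the mutant groups it was 0.01 (SE 0.06, adjusted p = 0.948), and its sign turned negative under limma-voom. Between genotypes Thra differed by 0.10 (SE 0.06) in soleus and -0.03 (SE 0.06) in TA on the log2 scale. These counts do not separate the hormone-binding from the non-binding product of Thra, and 263 bases of its exons (5.70%) are also exon of the clock gene Nr1d1 on the opposite strand, whose reads a non-stranded library cannot tell apart. Dio2 shares 100 bases (1.72% of its exons) with the non-coding gene Gm26512 in the same way, which stood at 0.325 CPM in WT soleus and 0.118 CPM in WT TA.

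Thrb, the second receptor gene, was higher in soleus. It ranged from 13 to 20.2 CPM in WT soleus (median 15.8) and from 8.63 to 12.9 CPM in WT TA (median 11.5), and all 9 soleus libraries lay above all TA libraries. The difference was 1.45-fold (log2 0.54, SE 0.09, adjusted p = 1.17e-05). In the mutant groups it ranged from 17.1 to 23.7 CPM in soleus and from 9.53 to 14.6 CPM in TA, a log2 difference of 0.59 (SE 0.07, adjusted p = 4.62e-07). Between genotypes Thrb stood higher in the mutant in both muscles, by 0.24 (SE 0.08) in soleus, where 2 of 9 mutant libraries lay above the highest WT library, and by 0.20 (SE 0.09) in TA, where 7 of 9 did. The groups overlapped in both.

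All 3 retinoid X receptor genes, whose products pair with the thyroid hormone receptors, were lower in WT soleus than in WT TA. Over all genes, 27.6% were called lower in this comparison. Rxrg was 2.98-fold lower (16.5 against 49.0 CPM, adjusted p = 5.14e-12) and Rxra 1.51-fold lower (adjusted p = 1.11e-07). Rxrb was 1.2-fold lower (adjusted p = 3.86e-05), at the edge of the fold limit. Between genotypes, Rxrg was at 38.7 CPM in mutant and 49.0 CPM in WT TA (log2 difference -0.34, SE 0.08). EdgeR did not call it (adjusted p = 0.135), while DESeq2 and limma-voom did. In soleus the 3 genes differed by -0.09 to 0.05 on the log2 scale and no tool called one, with 0 at an unadjusted p under 0.05.

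Thrsp, also known as Spot 14, takes part in fatty acid synthesis and is a classic T3-induced gene of liver and fat. In WT soleus it ranged from 6.00 to 14.1 CPM (median 8.63) and in WT TA from 11.1 to 18.7 CPM (median 13.1). In soleus 8 of 9 libraries lay below the lowest TA library, and the remaining one, replicate 1 at 14.1 CPM, was among the TA values. The level was 1.59-fold lower in soleus (log2 difference -0.67, SE 0.14, adjusted p = 0.000279). In the mutant groups it ranged from 7.02 to 14.7 CPM in soleus and from 10.8 to 14.7 CPM in TA, and the difference of -0.20 (SE 0.12) was not called (adjusted p = 0.129). Between genotypes it was higher in mutant soleus by 0.29 (SE 0.16) and lower in mutant TA by 0.17 on the log2 scale (SE 0.09), a difference of differences of 0.47 (SE 0.19) given without a test.

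The wider pathway was read through 64 genes of 11 lists that are not members. Between genotypes in soleus, 57 could be tested, of which 1 was higher and 1 lower, beside shares of 0.365% and 0.586% of all genes called in those directions. The lower one was Wsb1, the substrate adaptor of a ubiquitin ligase that marks deiodinase 2 for degradation. It ranged from 6.66 to 9.74 CPM in mutant and from 9.03 to 13.8 CPM in WT soleus, with 8 of 9 mutant libraries below the lowest WT library (log2 difference -0.54, SE 0.10, adjusted p = 0.0203). In TA its log2 difference was -0.27 (SE 0.12, adjusted p = 0.177). The difference of its genotype effects between muscles was not called (adjusted p = 0.315), in a test that called 0 of 20841 genes. The higher one was Klf9, a T3-induced transcription factor gene that also responds to glucocorticoids and the clock. It ranged from 131 to 188 CPM in mutant and from 111 to 151 CPM in WT soleus (log2 difference 0.30, SE 0.07, adjusted p = 0.0405).

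These 2 calls did not rest equally firmly on the libraries. With each soleus library left out in turn, Wsb1 was called in 17 of 18 fits and lost without WT replicate 5 (adjusted p = 0.0514). Klf9 was called in 5 of 18, with adjusted p up to 0.0886, and was kept only without mutant replicates 6, 7 or 9 or without WT replicates 1 or 2. Without WT replicates 1 and 2 together, 5 pathway genes were called higher and 2 lower. In that setting 6.3% of all 19676 genes tested were called, against 0.952% with all libraries.

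In TA, 58 pathway genes could be tested and edgeR called 0, beside 0.0149% of all genes. At an unadjusted p under 0.05 there were 11 higher and 4 lower. DESeq2 and limma-voom each called 1 (Rxrg), beside 1.12% and 0.747% of all genes. A single edgeR fit over the 36 libraries called 3 higher and 1 lower, beside 3.32% of all genes. In the coactivator list 4 of 8 genes were higher at an unadjusted p under 0.05 and none after adjustment. Over all genes tested in TA, at least 3408 of 20075 had an unadjusted edgeR p of 0.0301 or lower. Such p-values were thus common, and nothing is read from the unadjusted counts of this or any other list. The median log2 difference over the 58 genes was 0.06, against -0.00316 over all genes tested.

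**Figure D3:**
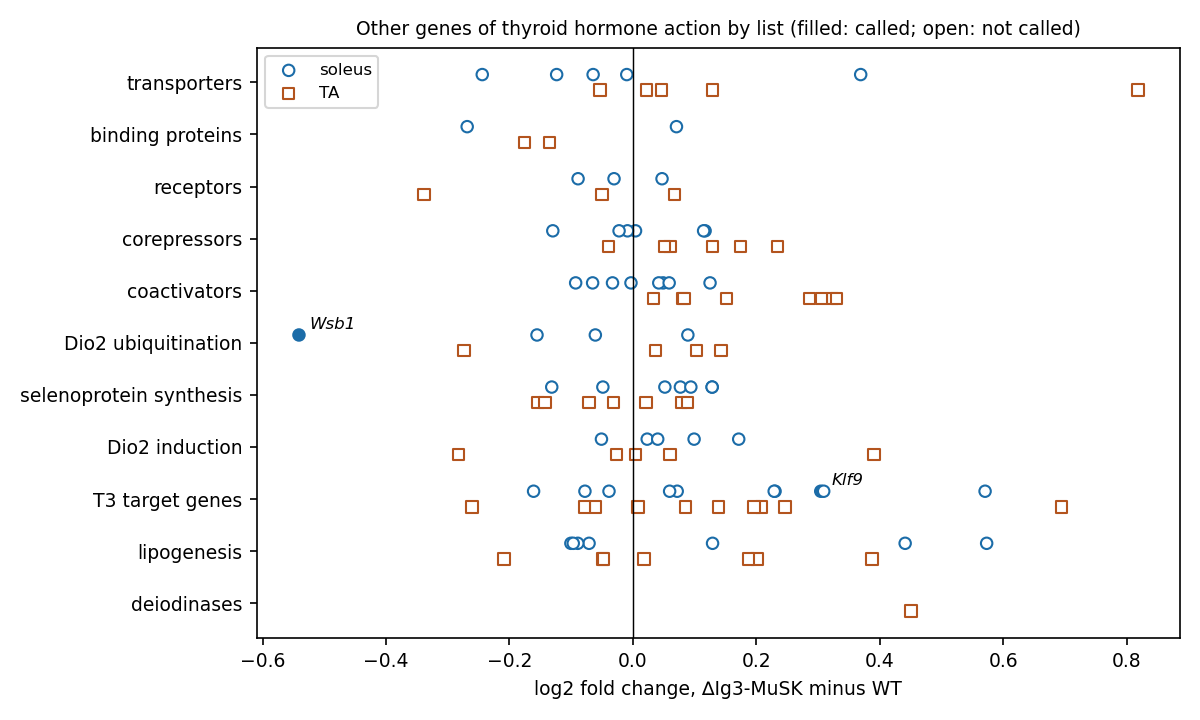
Log2 difference between ∆Ig3-MuSK and WT of each tested pathway gene that is not a member, by list, in soleus (circles) and TA (squares), with filled symbols for called genes. Filled symbols stand only at Wsb1 (-0.54) and Klf9 (0.30), both in soleus.

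Between the muscles of WT mice the same lists held 15 genes called higher in soleus, 19 called lower and 23 not called, beside 57.7% of all genes. Among T3 target genes 7 of 10 were lower in soleus and 1 was higher. Gpd2, the mitochondrial glycerol-3-phosphate dehydrogenase, was 9.95-fold lower (20.8 against 206 CPM, adjusted p = 4.88e-15). Me1, malic enzyme, was 2.36-fold lower (adjusted p = 4.1e-14) and Hr, a corepressor gene induced by T3, was 3.05-fold lower (adjusted p = 3.2e-12). The higher gene was Myh7, the slow myosin heavy chain, which T3 is known to repress and which defines the slow muscle. Several genes of this list, the myosins and Atp2a1 among them, are fiber-type genes, and 2 of them are also on the marker lists. The median of the list was -1.2 on the log2 scale, against 0.02 over all genes.

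Lipogenic genes mostly went the other way, with 5 of 7 higher in WT soleus and 1 lower. The shares over all genes were 30% and 27.6%. Acaca, acetyl-CoA carboxylase, was 2.59-fold higher (20.1 against 7.74 CPM, adjusted p = 1.73e-11), and Mid1ip1, the partner of Thrsp, was 1.74-fold higher (adjusted p = 3.75e-06). Srebf1, the lipogenic transcription factor gene, was 1.88-fold lower (adjusted p = 9.61e-09), in the direction of Thrsp. All 7 tested adipocyte markers were also higher in soleus, with a summed level of 56.8 to 284 CPM in WT soleus and 12.1 to 74.6 CPM in WT TA, and their part in these lipogenic values was not tested.

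Of the genes acting on the deiodinase 2 protein, Usp20, a deubiquitinase that rescues it, was 1.93-fold higher in WT soleus (21.6 against 11.2 CPM, adjusted p = 4.11e-13), the same direction as Dio2, and the other 3 were not called. In the list of Dio2 inducers, Prkaca, the catalytic subunit of the cAMP-dependent kinase, was 1.31-fold higher (adjusted p = 8.49e-08) and Foxo3 1.40-fold higher (adjusted p = 0.00031), with 3 of 5 not called. Among selenoprotein synthesis genes 3 of 7 were lower and none higher, led by Sephs2 (1.34-fold lower, adjusted p = 9.15e-07). Corepressors gave 1 higher (Ncor1, 1.37-fold) and 2 lower (Hdac3, 1.65-fold, and Gps2, 1.22-fold), and coactivators gave 2 higher and 1 lower of 8. Beside these counts, 30% of all genes were called higher and 27.6% lower in WT soleus. Nothing is read from the counts of these lists.

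Within groups, the members varied with different sets of genes. Deviations of log2 CPM from the group mean were compared over the 18 libraries of each muscle with the summed level of 11 marker lists, 110 relations in all, with permutation p adjusted over them by the Benjamini-Hochberg method. Slc16a10 followed the summed fast-fiber markers in soleus (r = 0.937, permutation p = 1e-05, the smallest the permutations can give, adjusted p = 0.0011, and rho = 0.893 with the same p values). The relation was 0.88 without the 2 libraries farthest from the median, and held in WT (0.967) and mutant (0.838) libraries taken alone. In TA the value was 0.41 (permutation p = 0.104, adjusted p = 0.443, rho = 0.307 with permutation p = 0.231) and 0.0394 without the 2 farthest libraries. Slc16a10 also moved against fibroblast markers in soleus (r = -0.719, permutation p = 0.001, adjusted p = 0.0388, and -0.707 without the 2 farthest). By rank, rho was -0.74 (permutation p = 0.00087, adjusted p = 0.0478).

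**Figure D4:**
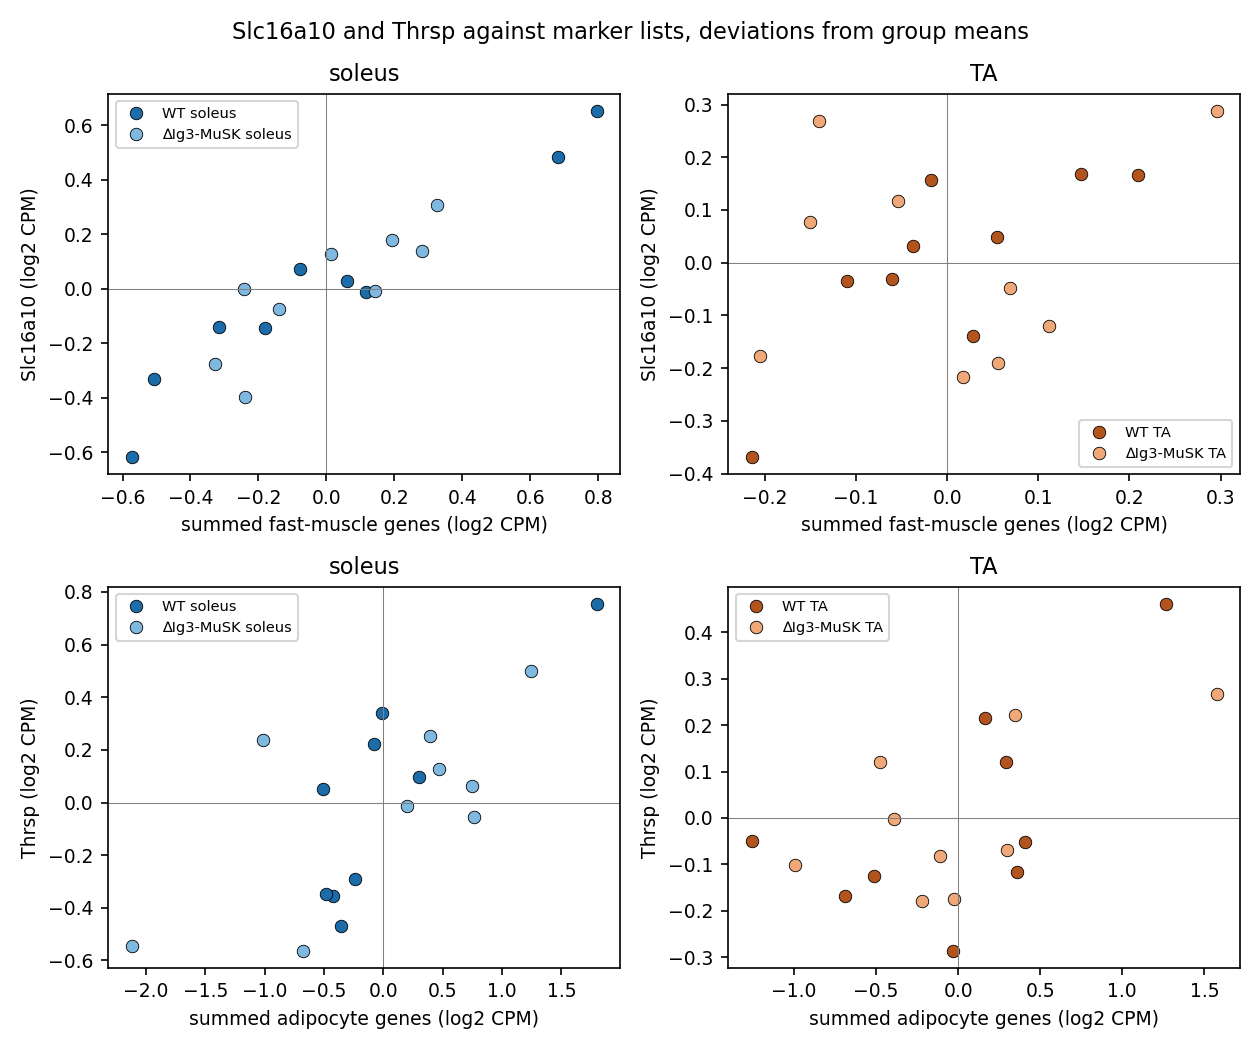
Deviations from group means, in log2 CPM, of Slc16a10 against summed fast-fiber markers (top) and of Thrsp against summed adipocyte markers (bottom), in soleus and TA, with a point per library. Slc16a10 rises with the fast-fiber sum in soleus (r = 0.937) and less in TA (r = 0.41), and Thrsp with the adipocyte sum in soleus (r = 0.718) and TA (r = 0.611).

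Thrsp followed the summed adipocyte markers in soleus (r = 0.718, permutation p = 0.00135, adjusted p = 0.0388, rho = 0.614, permutation p = 0.00881, adjusted p = 0.162). The value was 0.518 without the 2 farthest libraries, so part of it rested on them. In TA r was 0.611 (permutation p = 0.00964, adjusted p = 0.118, rho = 0.459 with permutation p = 0.0674), and 0.254 without the 2 farthest. The adipocyte sum itself had a median of 142 CPM in mutant soleus (24.0 to 256) and 68.6 CPM in WT soleus (56.8 to 284). The median log2 difference of its tested genes in soleus was 0.504, the direction of Thrsp, and its part in the Thrsp values was not tested. Its brown-fat marker Ucp1 was at 0 CPM in mutant soleus, and 7 of its 8 genes could be tested, with 0 called between genotypes by edgeR and 0 at an unadjusted p under 0.05 in either muscle. Thrsp also moved against endothelial markers in soleus (r = -0.692, permutation p = 0.00141, adjusted p = 0.0388, and -0.591 without the 2 farthest). By rank, rho was -0.688 (permutation p = 0.00285, adjusted p = 0.101), which did not pass the adjustment.

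Dio2 moved against the summed circadian clock genes. In soleus r was -0.642 (permutation p = 0.00582, adjusted p = 0.105, rho = -0.643, permutation p = 0.00635) and -0.664 without the 2 farthest libraries, at -0.64 within WT and -0.645 within mutant libraries. In TA r was -0.591 (permutation p = 0.0126, adjusted p = 0.138, rho = -0.492, permutation p = 0.0474) and -0.497 without the 2 farthest. Neither passed the adjustment over 110 relations. Gene by gene over the 18 soleus libraries, r with Dio2 was -0.721 for Tef, -0.679 for Ciart and -0.63 for Per3, and 0.402 for Arntl, whose transcript peaks opposite to theirs. Nr1d1, whose exons overlap those of Thra, did not share the negative sign (0.0911 in soleus and 0.273 in TA).

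**Figure D5:**
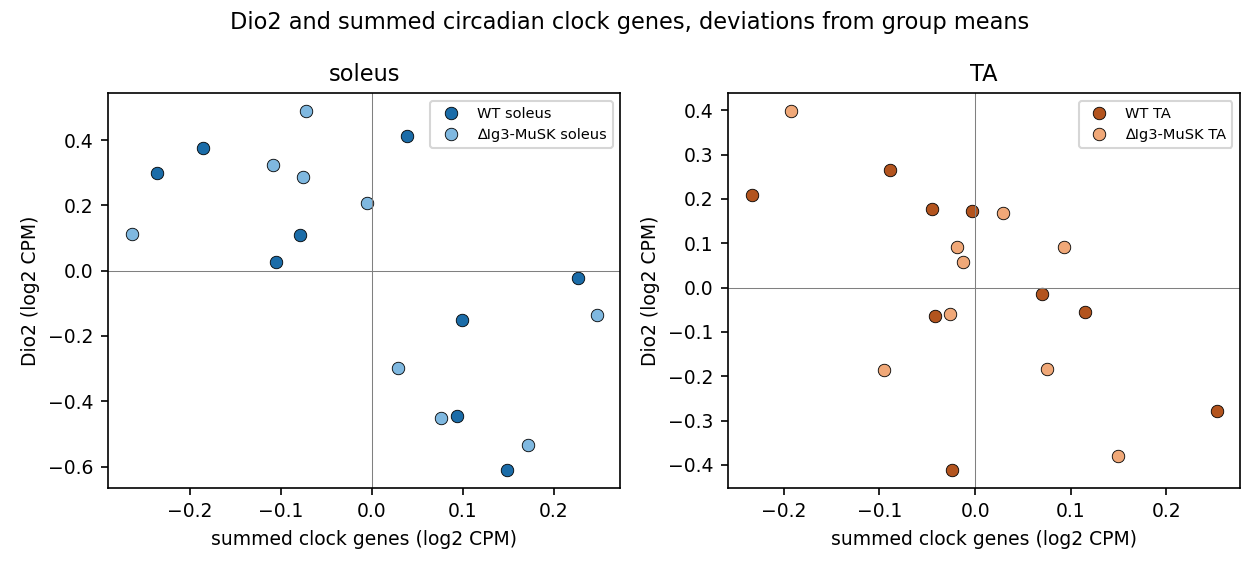
Deviations from group means, in log2 CPM, of Dio2 against the summed level of 8 circadian clock genes, in soleus (left) and TA (right), with a point per library colored by genotype. Libraries with more clock transcript held less Dio2 in soleus (r = -0.642) and TA (r = -0.591).

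The clock genes also differed between genotypes, in the contrast on which Dio2 was picked. In soleus 6 of 8 were higher in the mutant and 1 lower by edgeR, DESeq2 and limma-voom. Over all genes in soleus these tools called 0.952%, 2.5% and 3.36% in either direction. The clock list was chosen with earlier results of these data known, so nothing about Dio2 is read from its counts. The summed level was 446 to 635 CPM in mutant and 332 to 458 CPM in WT soleus libraries. Dbp, an output factor of the clock, was 2.35-fold higher (adjusted p = 0.0135), Per3 1.91-fold higher (adjusted p = 0.0161) and Nr1d2 1.38-fold higher (adjusted p = 0.0134), while Arntl, the core activator, was 1.72-fold lower (adjusted p = 0.0291). With each soleus library left out in turn, Dbp, Nr1d2, Per3 and Ciart were called in all 18 fits, Tef in 15 (lost without WT replicates 4, 5 or 6), Arntl in 14 (lost without WT replicates 3, 4, 5 or 6) and Per2 in 9 (lost without mutant replicates 3, 4 or 5 or WT replicates 3, 4, 5, 6, 8 or 9, adjusted p up to 0.0687). In TA edgeR called 1 of 8 (Dbp, 1.86-fold higher, adjusted p = 0.0012), with 6 higher and 1 lower at an unadjusted p under 0.05. There DESeq2 and limma-voom each called 4 higher (Dbp, Per2, Per3 and Ciart) and 1 lower (Arntl). Over all genes in TA, edgeR called 0.0149%, DESeq2 1.12% and limma-voom 0.747%. The part of the clock genes in the Dio2 values was not tested.

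Summed levels of other marker lists stood higher or lower in mutant than in WT soleus, and within groups none followed Dio2 after adjustment. Astrocytes express Dio2, and the astrocyte and neuron list holds genes of both cell types. EdgeR called 3 of its 8 genes higher in mutant soleus (Gfap, Slc1a2 and Syt1), and DESeq2 and limma-voom each called 6. Over all genes in soleus these tools called 0.952%, 2.5% and 3.36% in either direction. This list too was chosen with earlier results of these data known. The 3 edgeR calls were not firm, with Gfap kept in 7, Syt1 in 6 and Slc1a2 in 10 of 18 fits that left out a library, and all 3 lost without mutant replicates 1, 4 or 5 or WT replicates 3, 4, 5, 6 or 8. The summed level was 14.9 to 20.2 CPM in mutant and 13.3 to 16.8 CPM in WT libraries, the direction opposite to Dio2, and r of Dio2 with that sum in soleus was -0.339 (permutation p = 0.186, adjusted p = 0.518, rho = -0.282 with permutation p = 0.273, and -0.172 without the 2 farthest).

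In the direction of Dio2, the summed fibroblast markers had a median of 608 CPM in mutant soleus (320 to 859) and 789 CPM in WT soleus (548.3 to 1557). The endothelial sum had medians of 271 CPM (223 to 305) and 305 CPM (254 to 343), and the immediate early genes medians of 47.2 CPM (32.5 to 108) and 83.8 CPM (44.7 to 145), with overlap between genotypes in all 3 lists. EdgeR called 0 genes of these lists. At an unadjusted p under 0.05 there were 2 of 4 fibroblast, 2 of 4 endothelial and 3 of 6 immediate early genes lower. DESeq2 called Col1a1, Kdr and Fosb lower, and limma-voom these and Fos. The r of Dio2 with the 3 sums in soleus ran from 0.279 to 0.403 (lowest permutation p = 0.109, adjusted p = 0.443, rho from 0.251 to 0.395 with lowest permutation p = 0.117, and r from 0.158 to 0.336 without the 2 farthest). The r with the immediate early sum was 0.814 within WT and -0.197 within mutant libraries. The macrophage sum had a higher r with Dio2 in soleus than these 3 (0.415, permutation p = 0.0988, adjusted p = 0.443, rho = 0.383). In TA, r of Dio2 with the fibroblast sum was 0.512 (permutation p = 0.0352, adjusted p = 0.253, rho = 0.531, and 0.546 without the 2 farthest). With the macrophage sum it was 0.477 in TA (permutation p = 0.0535, adjusted p = 0.294, rho = 0.463). The TA values were -0.0605 for the endothelial and 0.292 for the immediate early sum. The part of these lists in the Dio2 values was not tested.

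The members did not vary as one group. Over the 36 libraries, r between deviations of Dio2 and those of the other members ran from -0.288 (Thrb) to -0.019 (Thra), and the highest value among all pairs was 0.414, for Slc16a10 with Thra. Of 20841 genes, those whose deviations were most like Dio2 were Cybc1, a chaperone of the phagocyte NADPH oxidase (r = 0.725), Slpi, a secreted protease inhibitor (0.723), Igf1, the insulin-like growth factor (0.677), Tppp3, a tubulin-binding protein (0.676), and Pea15a (0.653). Slpi stood at only 0.167 CPM on average. For Thrsp they were Cidec, a lipid droplet protein that is also on the adipocyte list (r = 0.754), Slc1a5, a glutamine transporter (0.719), Cebpa, an adipogenic transcription factor gene (0.712), Slc1a3, a glutamate transporter (0.711), and Hacd2, an enzyme of fatty acid elongation (0.703). Hacd2 reached 0.841 in soleus, against 0.189 in TA. These values are descriptions, picked as the highest of 20841.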

How the data were processed

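Per the labels and the study's methods, the authors trimmed reads with Trimmomatic, aligned them to GRCm38 with GSNAP and counted them per Ensembl gene with HTSeq, without strand. The deposited values are raw counts in a table per muscle. Levels are CPM with TMM factors over 36 libraries, and per kilobase of exon (GENCODE M21) where genes are compared. Tests used edgeR 4.0.16 (R 4.3.3) quasi-likelihood fits on each pair of groups, with genes filtered at a minimum count of 10 and total of 15, Benjamini-Hochberg adjustment over all genes tested, and calls at adjusted p under 0.05 and at least 1.2-fold, the study's thresholds. Alternatives were DESeq2 1.42.0, limma-voom 3.58.1, other scaling, filters and blocks, and single libraries left out. On simulated data, edgeR recovered 95.4% of 194 genes changed by 1 log2 unit among 19280 in the soleus genotype design, with 5 false calls. In the WT muscle design it recovered 90.7% of 193 among 18891, with 8 false calls. Recovery was not tested for smaller differences, such as those of Wsb1 and Klf9, or in the TA genotype design. Relations across libraries used 100000 permutations within genotype.

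The members and gene lists were chosen with earlier results of these data known. Named genes were the 5 members, genes overlapping them, and all deiodinases, transporters, binding proteins and receptors. Up to 4 called genes with the smallest adjusted p per other list, and the 5 genes most like Dio2 and Thrsp, were also named. Outside this rule, Musk, further clock genes and some other list genes are named, among them genes called only by DESeq2 or limma-voom. Some tested genes of the lists are counted but not reported here by name. Promoters came from RefSeq. The study describes a muscle per animal, but 8 WT and 8 mutant label numbers each occur in both muscles. Pairing by label number was run as an alternative. Where separate animals are not stated, p-values measure the spread between these libraries.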

Additional observations from a re-analysis of the deposited data

How the results depend on the processing

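Across the alternatives the Dio2 genotype difference stayed negative, from -0.79 to -0.72 in soleus and -0.31 to -0.22 in TA over 7 planned settings, and from -0.79 to -0.67 and -0.36 to -0.26 with a library left out. In WT mice the muscle difference of Dio2 was 1.74 to 1.86 and that of Slc16a10 was -1.70 to -1.56 with a library left out. The number of pathway genes called higher in soleus between genotypes moved from 1 to 2 under limma-voom, 0 under the replicate block and 5 without WT replicates 1 and 2, where the number lower was 2. In TA the number lower moved from 0 to 1 under DESeq2, limma-voom and a single fit over 36 libraries, where the number higher was 3. Klf9 missed the threshold under the replicate block (adjusted p = 0.0541), and the block moved calls over all genes in soleus from 185 to 347. Same replicate numbers correlated above 0.1 in 3 of 9 pairs in soleus and 2 of 9 in TA. Across muscles, same label numbers correlated above 0.1 in 2 of 8 WT and 5 of 8 mutant pairs, and a library correlated best with its own number in 4 of 8 and 5 of 8, a hint from the data that some numbers may mark a shared animal. With a block on these pairs, calls over all genes between muscles moved from 11211 to 11234 in WT and from 11136 to 11172 in mutant mice, the tested members kept their calls, and 2 other pathway calls were lost in WT mice (Ppargc1a and Sepsecs). The difference of Thra between mutant muscles, within its error of 0, turned to -0.00532 under limma-voom. Genes called in soleus numbered 185, but 486 by DESeq2, 653 by limma-voom, 312 in the single fit, 22 to 602 with a library left out and 1240 without WT replicates 1 and 2. In TA they numbered 3, but 225, 150 and 692 in the first 3 of these and 0 with the block. The cause was not tested. Of 1085 values recomputed, 1062 kept their direction and side of the threshold or stayed within the spread. For values given without a test, that spread was 1 SD of library levels in the reference group, a wide limit. The fits of pathway genes with a library left out, in which Klf9 mostly lost its call, are not among the 1085. Dio2 rested on 82 to 453 counts per library.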
